A study of Papio hamadryas with 17 samples.

Results

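The urate handling genes of the kidney were described in cortex biopsies of baboons as a set of 6 named genes, chosen by gene symbol and not by their measured values. They are the reabsorptive transporters SLC22A12 and SLC2A9, the secretory transporters SLC17A1, SLC17A3 and ABCG2, and the scaffold protein PDZK1. Of the 6 genes, 4 were found in the tables of both sexes: SLC22A12, SLC17A1, SLC17A3 and PDZK1, with 21 transcripts among the 17119 transcripts and 4 genes among the 10007 genes that both tables hold. SLC2A9 and ABCG2 were not analysed here, so the reabsorptive side rests on SLC22A12 alone and the secretory side on the SLC17 pair.

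The study compared gene expression between female and male baboons (Papio hamadryas) by sequencing mRNA of ultrasound-guided kidney cortex biopsies. It has 8 females aged 15 to 19 and 9 males aged 6 to 13, each animal giving 1 library, and the labels state no unit for age. Both sexes were untreated and had been kept on low-salt control chow for life. No genotype, transgene or pooling of animals is named in the labels. The comparison used 6 females (females 3 to 8) and 8 males (all but male 6). Female 1, female 2 and male 6 were left out by the rule of the set: their mean log2 level of 4 skeletal muscle genes was 13.11 to 13.89, against 1.07 to 1.95 in the compared females and 0.95 to 2.42 in the compared males. By their library names the females form 1 series and the males 2, series A (males 1 to 5) and series B (males 7 to 9 of those compared). Sex, age and library series therefore cannot be told apart.

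Urate is the end product of purine breakdown in humans, whereas baboons have a working uricase that degrades it further. In the kidney, urate is filtered and then moved in both directions across the proximal tubule cell. SLC22A12 (URAT1) takes urate up from the tubule lumen in exchange for anions, and SLC2A9 (GLUT9) passes it on to the blood. SLC17A1 (NPT1) and SLC17A3 (NPT4) are voltage-driven exporters of the luminal membrane, ABCG2 is an ATP-driven exporter, and PDZK1 is a scaffold with several PDZ domains that binds the tails of luminal transporters, SLC22A12 and SLC17A1 among them.

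The values are deposited signal per transcript, from which an offset of 1 was subtracted and which was summed per gene. The summed signal over shared transcripts was 259197 to 319420 in the compared females and 264577 to 440508 in the compared males, and read totals were not used here. Mitochondrial transcripts made up 27.6% to 51.0% of it in females and 22.5% to 36% in males. The proximal tubule level, the mean log2(signal + 1) of 22 marker genes of that segment, was 2.82 to 6.68 in females and 6.85 to 8.11 in males, so the sexes did not overlap. In bulk tissue, fewer proximal tubule cells and less RNA per cell cannot be told apart. Female 3 had the lowest proximal tubule level, 2.82 against 5.46 to 6.68 in the other 5 females. In the table of females, its signal was 0 for NPHS1, which encodes a slit diaphragm protein of the glomerular podocyte, against at least 9.77 in the other 5 females. Its mean level of 6 thick limb genes, 7.51, was the highest of the compared females. The labelled cortex is therefore not borne out by this glomerular marker in that library, and values without it are given beside the results it touches.

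All 4 genes were lower in females than in males. With limma on log2(signal + 1) over 6 females and 8 males, 4 of 4 passed an adjusted p of 0.05, in a fit in which 35.5% of all 9709 genes tested were called lower in females and 2.2% higher. The mean signal was 2.05-fold (SLC22A12), 2.63-fold (PDZK1), 3.52-fold (SLC17A3) and 4.03-fold (SLC17A1) higher in males. All genes together had a median log2 difference of -0.35, and the 4 genes lay between -1.45 and -2.42. After scaling each library by its median gene, which brought the median of all genes to 0.02, 3 of the 4 genes were called and SLC22A12 was not, in a fit with 29% of all genes called. Without female 3, all 4 were called, in a fit with 40.9% of all genes called.

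**Figure D1:**
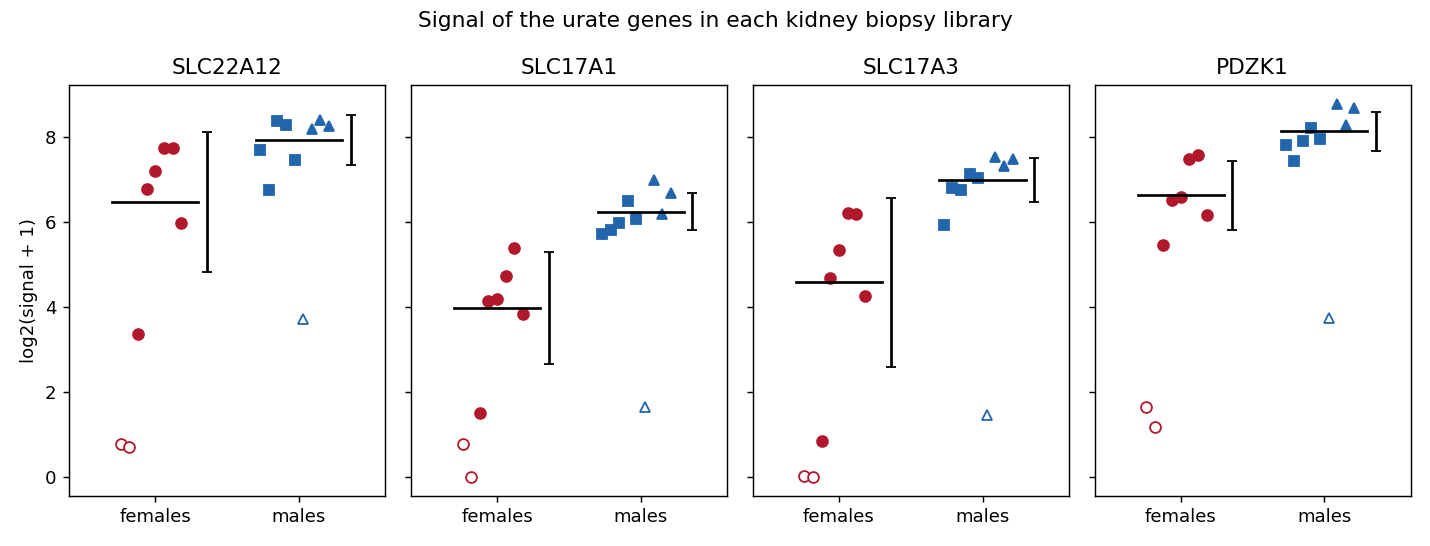
Signal of SLC22A12, SLC17A1, SLC17A3 and PDZK1 in each library, as log2(signal + 1) on the vertical axis, by sex on the horizontal axis. Circles are females, squares are males of series A and triangles are males of series B, open symbols are the 3 libraries left out, horizontal lines are means of the compared libraries and bars are their SD. Female 3 is the lowest filled circle in each panel, and SLC17A1 is the panel in which filled symbols of the sexes do not overlap.

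SLC22A12, the luminal urate uptake transporter (gene23616 in the deposited tables, minus strand of sequence NC_018165.2, 9513137 to 9525892), had a lowest, median and highest signal of 9.33, 127 and 213 in the 6 females. In the 8 males these were 106, 297 and 336. The sexes overlapped: females 4 to 7, at 109 to 213, lay above male 2, the lowest male. Females averaged 125 ± 81.4 (SD, n = 6) and males 257 ± 85.0 (SD, n = 8). The log2 difference, female minus male, was -1.45 (SE 0.54, limma adjusted p = 0.0451). This call was the least firm of the 4. It was lost with each of 3 other library scalings (adjusted p = 0.189 to 0.206, log2 difference -0.96 to -1.01) and without any 1 of 9 libraries, females 4 and 8 and every compared male except male 2 (adjusted p = 0.051 to 0.0893). Without female 3 the male mean was 1.73-fold higher and the log2 difference -0.83 (limma adjusted p = 0.0476).

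SLC17A1, a luminal exporter of urate and other organic anions (gene7538, minus strand of NC_018155.2, 25794283 to 25849202), had a lowest, median and highest signal of 1.85, 17.0 and 40.9 in females. In males these were 51.8, 68.7 and 125. Every compared female lay below every male, as for 11.6% of all genes tested. Females averaged 19.2 ± 13.1 (SD, n = 6) and males 77.6 ± 25.3 (SD, n = 8), and the log2 difference was -2.27 (SE 0.43, limma adjusted p = 0.000842). Without female 3 the male mean was 3.41-fold higher and the log2 difference -1.78 (limma adjusted p = 0.000148).

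SLC17A3, the neighbouring exporter of the same family (gene7539, minus strand of NC_018155.2, 25858324 to 25887834), lies 9122 bases from SLC17A1. Its lowest, median and highest signals were 0.787, 31.8 and 72.6 in females. In males they were 59.3, 134 and 183. The overlap came from male 1, whose 59.3 lay below females 6 and 7 at 72.6 and 71.2. Females averaged 37.7 ± 29.2 (SD, n = 6) and males 133 ± 40.6 (SD, n = 8), and the log2 difference was -2.42 (SE 0.63, limma adjusted p = 0.00686). Female 3 was nearly without SLC17A3, and leaving it out brought the male mean to 2.94-fold and the log2 difference to -1.67 (limma adjusted p = 0.00111).

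PDZK1, the scaffold (gene1704, minus strand of NC_018152.2, 117839277 to 117888834), had a lowest, median and highest signal of 42.7, 92.2 and 190 in females and of 171, 271 and 438 in males. Females 6 and 7, at 178 and 190, overlapped with male 2 at 171. Females averaged 111 ± 59.5 (SD, n = 6) and males 291 ± 92.4 (SD, n = 8), and the log2 difference was -1.50 (SE 0.30, limma adjusted p = 0.00129). Without female 3 it was -1.27 (limma adjusted p = 0.00169). PDZK1 overlaps the annotated span of CD160 on the opposite strand and lies 266 bases from GPR89A. The libraries were made with a stranded kit, but the use of strand in counting is not stated by the labels or headers, so signal shared with CD160 was not separated.

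The 4 genes differed in how widely they ranged among the 6 females, female 3 included. The highest female signal was 92.3-fold the lowest for SLC17A3, 22.8-fold for SLC22A12, 22-fold for SLC17A1 and 4.45-fold for PDZK1, each with female 3 as the lowest. Among the 8 males the same ranges were 2.41-fold to 3.18-fold. Without female 3, the SD of log2(signal + 1) among females was 0.61 (SLC17A1), 0.63 (PDZK1), 0.74 (SLC22A12) and 0.88 (SLC17A3). Among the 8 males it was 0.44 to 0.59. In female 3 PDZK1 stood 2.63 log2 units above the proximal tubule level, where the other 5 females had 0.68 to 1.31. SLC17A3 stood 1.98 units below it in that library. In the 3 libraries left out, all 4 genes were low: at most 2.11 in females 1 and 2 and at most 12.3 in male 6.

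Age and library series touch the same comparison. With age as a term in the model, 0 of the 4 genes and 1 gene of all 9709 were called, and the SE of the sex difference rose to between 0.91 and 1.88. The log2 differences with that term were 0.23 for SLC22A12, -1.17 for SLC17A1, -1.38 for SLC17A3 and -0.90 for PDZK1. Against males of series A alone, 2 of the 4 genes were called (SLC17A1 and PDZK1), where 20.4% of all genes were. Against males of series B alone, 3 were called, all but SLC22A12, where 32.3% of all genes were. Within the males, series B was higher than series A by 0.58 (SLC22A12), 0.60 (SLC17A1), 0.70 (SLC17A3) and 0.72 (PDZK1) log2 units. None passed (limma adjusted p = 0.628 to 0.677), in a fit with 0 of 9064 genes called (0%) and 639 genes at an unadjusted p under 0.05. The unadjusted limma p was 0.00624 for PDZK1, 0.0175 for SLC17A3, 0.0214 for SLC17A1 and 0.105 for SLC22A12.

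The signal of each gene followed the proximal tubule level from library to library. Over the 14 libraries, Pearson's r with that level was 0.995 for SLC17A1 (Spearman's rho 0.991), 0.978 for SLC17A3 (rho 0.960), 0.952 for PDZK1 (rho 0.956) and 0.912 for SLC22A12 (rho 0.719). Adjusted permutation p-values over the 10 relations computed, these 4 and the 6 pairs of genes, were 1.67e-05 for the first 3 (from 1e-05, the smallest that 100000 permutations can give) and 0.00015 for SLC22A12, with 0.00526 for its rho. The sexes lie apart on this axis, so the relations are also given within each sex. Within the 8 males r was 0.945 for SLC17A1 (exact permutation p = 0.000446), 0.886 for SLC17A3 (exact p = 0.00181), 0.880 for PDZK1 (exact p = 0.00558) and 0.616 for SLC22A12 (exact p = 0.103). Within the 6 females it was 0.898 to 0.994, which includes female 3. Without the 2 libraries farthest from the median level, females 3 and 4, r over the rest was 0.990, 0.938, 0.948 and 0.740 in the same order of genes.

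**Figure D2:**
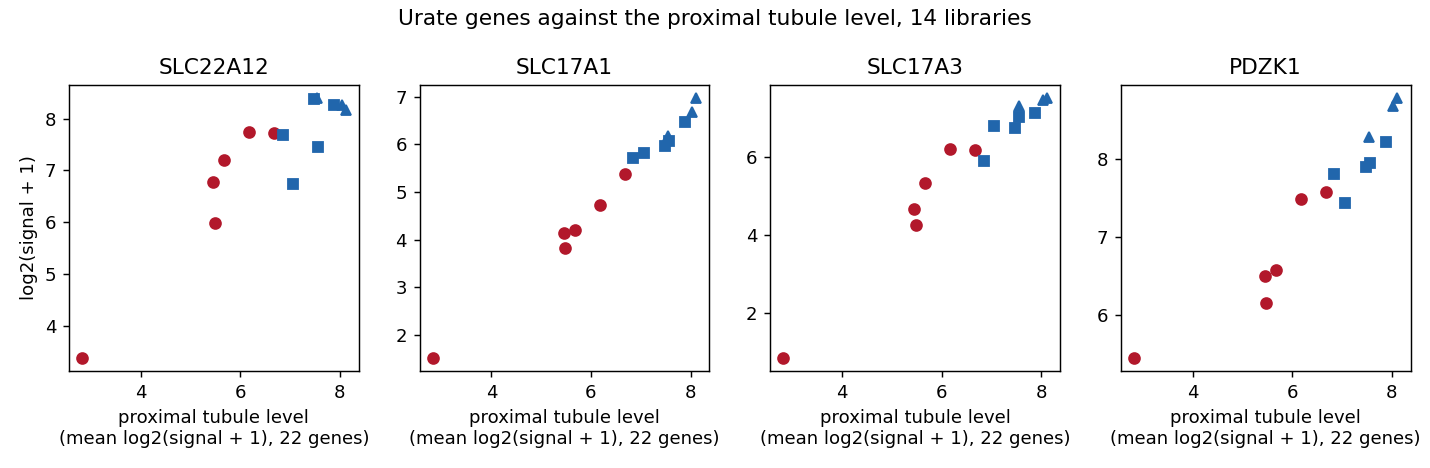
log2(signal + 1) of each gene on the vertical axes, each with its own range, against the proximal tubule level of the library (mean log2(signal + 1) of 22 marker genes) on the horizontal axis, for the 14 compared libraries. Red circles are females, blue squares and triangles are males of series A and B. SLC17A1 lies close to a line through both sexes (r = 0.995), SLC22A12 spreads most among the males (r = 0.616), and female 3 is the point at 2.82.

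Among the genes themselves, SLC17A1 and SLC17A3 had r = 0.970 and SLC17A1 and PDZK1 r = 0.964 over the 14 libraries (adjusted permutation p = 1.67e-05 for each), and rho was 0.974 and 0.969. The pairs with SLC22A12 had r of 0.876 (PDZK1), 0.902 (SLC17A1) and 0.938 (SLC17A3), and rho of 0.837, 0.763 and 0.745. Without female 3 those with SLC17A1 and SLC17A3 were 0.768 and 0.800. Within the 8 males they were 0.540 and 0.394 (exact permutation p = 0.165 and 0.335). SLC17A1 and PDZK1 stayed at 0.928 within males (exact permutation p = 0.000843). After the proximal tubule level was taken out of each gene, 0 of the 6 pairs passed the adjustment, the highest r being 0.547 for SLC17A1 with PDZK1 (permutation p = 0.0438) and 0.540 for SLC22A12 with SLC17A3 (permutation p = 0.0473).

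With the proximal tubule level as a term in the limma fit, 0 of the 4 genes were called between the sexes. SLC17A1 had a log2 difference of -0.14 (SE 0.17, adjusted p = 0.585) and PDZK1 of -0.21 (SE 0.26, adjusted p = 0.574). The sign turned for SLC17A3, at 0.66 (SE 0.28, adjusted p = 0.104), and for SLC22A12, at 1.06 (SE 0.36, adjusted p = 0.0539). In this fit 1562 of 9709 genes (16.1%) were still called, 1448 of them lower in females. With median scaling and the same term, an alternative added after the values were seen, SLC22A12 was called higher in females at 1.0 (limma adjusted p = 0.0436). That fit called 14.2% of all genes. With the term, no median scaling and female 3 left out, SLC22A12 was at 0.77 (limma adjusted p = 0.586). That fit called 0 genes of 9631.

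The balance of uptake and export genes was described without a test. Signal is not known to be per length, so a level is compared between libraries and not between genes. SLC22A12 minus the mean of SLC17A1 and SLC17A3, each as log2(signal + 1), was 2.19 ± 0.21 (SD, n = 6) in females, from 1.94 to 2.43. In males it was 1.30 ± 0.54 (SD, n = 8), from 0.43 in male 2 to 2.02 in male 3. The sexes overlapped through male 3, whose 2.02 lay above females 7 and 8 at 1.95 and 1.94. On the scale of signal, the ratio of SLC22A12 to SLC17A1 had a median of 5.83 in females (4.69 to 8.39) and of 3.25 in males (1.91 to 5.39). Female 3, low in these genes, had a balance of 2.19, inside the range of the other females. Its SLC17A3 signal of 0.787 lay below the 1 added before the log, which narrows this balance. On the scale of signal, its ratio of SLC22A12 to SLC17A3 was 11.9, against 2.94 to 4.44 in females 4 to 8.

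**Figure D3:**
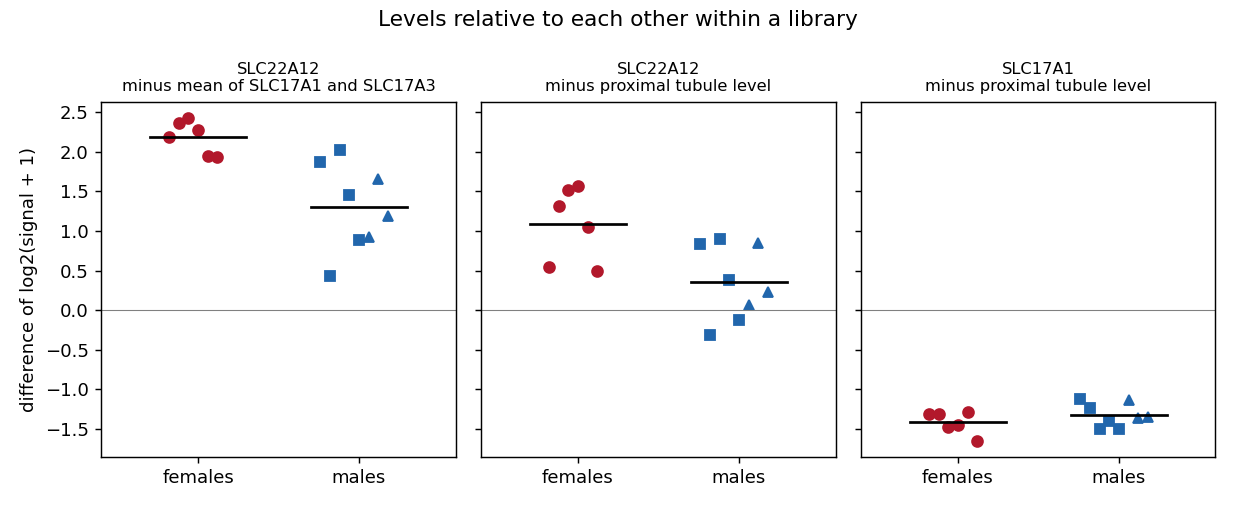
Differences of log2(signal + 1) within a library (vertical axis) by sex: SLC22A12 minus the mean of SLC17A1 and SLC17A3, SLC22A12 minus the proximal tubule level, and SLC17A1 minus the proximal tubule level. Circles are females, squares and triangles are males of series A and B, and lines are means. The first difference averages 2.19 in females and 1.30 in males, and the last -1.41 and -1.33.

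Relative to the proximal tubule level, SLC17A1 stood at -1.41 ± 0.14 in females (SD, n = 6) and -1.33 ± 0.15 in males (SD, n = 8), the narrowest spread of the 4 genes. SLC22A12 stood at 1.09 ± 0.47 in females (SD, n = 6) and 0.35 ± 0.47 in males (SD, n = 8). The sexes overlapped, with males 1, 3 and 8 at 0.83, 0.90 and 0.85 above females 3 and 8 at 0.55 and 0.50. PDZK1 stood at 1.24 ± 0.71 in females (SD, n = 6) and 0.56 ± 0.22 in males (SD, n = 8), with overlap, and without female 3 the female mean was 0.97 (n = 5). SLC17A3 stood at -0.80 ± 0.72 in females (SD, n = 6) and -0.57 ± 0.24 in males (SD, n = 8), and without female 3 the female mean was -0.57 (n = 5). For SLC22A12 and SLC17A1 it was 1.19 and -1.44 without female 3.

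The transcript variants of SLC22A12 held different shares of its signal in the sexes. The tables list 4 variants. The annotated starts of X1, X2 and X3 lie within 6 bases of each other, and X4 starts 1548 bases further downstream. X4 held 84.8%, 76.7%, 72.2%, 84.5%, 65.9% and 75.1% of the gene's signal in females 3 to 8. In males 1 to 5 it held 57.0%, 64.8%, 54.8%, 54.5% and 51.6%, and in males 7 to 9 51.5%, 55.8% and 52.6%. The sexes did not overlap, although the lowest female, female 7 at 65.9%, lay close to the highest male, male 2 at 64.8%. Females averaged 76.5% ± 7.29 (SD, n = 6) and males 55.3% ± 4.30 (SD, n = 8), a difference of 21.2 percentage points (two-sided exact permutation test, p = 0.000333, the smallest that the 3003 splits allow, and adjusted p = 0.0313 over 3570 genes with at least 2 transcripts). A share within a gene does not depend on how a library was scaled.

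**Figure D4:**
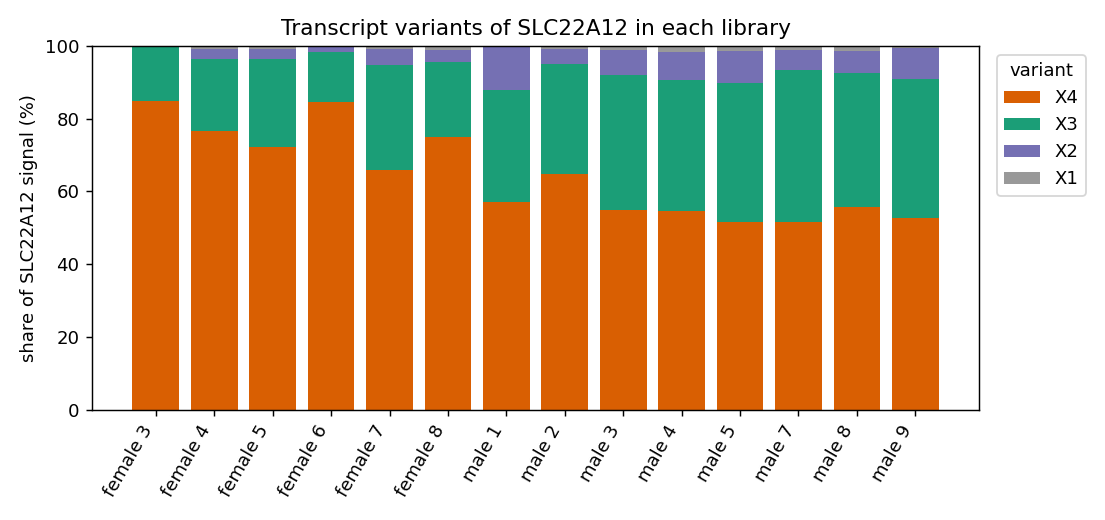
Share of SLC22A12 signal (vertical axis, percent) held by its transcript variants X1 to X4 in each of the 14 compared libraries (horizontal axis). The orange part, X4, takes 65.9% to 84.8% in the 6 females and 51.5% to 64.8% in the 8 males.

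The shares that were smaller in females were those of X3, 20.4% ± 5.59 (SD, n = 6) against 36.2% ± 3.87 (SD, n = 8; exact permutation p = 0.000333), and of X2, 2.43% ± 1.52 (SD, n = 6) against 7.41% ± 2.31 (SD, n = 8; exact permutation p = 0.00133). X1 held about as little in both sexes, 0.696% and 1.04%. The shares of a gene's variants add up to the whole, so the smaller share of X3 largely mirrors the larger share of X4. It is not a further result, and the p-values for X3 and X2 were not adjusted. In signal, X1 to X3 together averaged 31.3 in females and 117 in males, a 3.72-fold difference, or 3.13-fold without female 3. X4 averaged 93.7 in females and 140 in males, 1.5-fold, or 1.26-fold without female 3. X4 alone was not called (log2 difference -0.98, SE 0.51, limma adjusted p = 0.165), while X2 (-2.31, adjusted p = 0.00139) and X3 (-2.19, adjusted p = 0.00804) were.

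Shares of the leading transcript were called for 4.96% of the 3570 genes and did not overlap between the sexes for 1.88%. A difference of at least 21.2 points was found in 10.5% of them, genes of low signal included. Leaving out 1 library at a time kept the SLC22A12 difference between 19.5 and 23.3 points (exact permutation p = 0.000583 to 0.000777). The adjusted call was lost without any 1 of female 5, female 6, male 1, male 3, male 5, male 7 or male 9, when 0 of all genes passed. The variants share most of their sequence span, so their signals rest on how the authors' software divided reads among them.

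For the other 3 genes the share of the leading transcript was not called. PDZK1 variant X3 held 28.1% ± 4.09 in females (SD, n = 6) and 36.5% ± 6.33 in males (SD, n = 8) (exact permutation p = 0.016, adjusted p = 0.131 over all genes). SLC17A1 variant X4 held 84.4% and 87.6% (exact permutation p = 0.713, n = 6 and 8). SLC17A3 variant X1 held 61.5% and 66.1% (exact permutation p = 0.877, n = 6 and 8). In female 3 SLC17A3 X1 held 0.0966% and variant X7 98.4%, at a gene signal of 0.787. Shares of the other variants were not adjusted. For the share of the leading transcript alone, 746 of 3570 genes had an unadjusted exact permutation p under 0.05. Shares within a gene add up to the whole, so those of its variants are not separate results. PDZK1 X6, X7, X8 and X9 held larger shares in females (exact permutation p = 0.00266 to 0.00566). So did SLC17A1 X2, 7.71% against 3.86% (exact permutation p = 0.00799). Shares of PDZK1 X4 and SLC17A3 X6 were smaller in females (exact permutation p = 0.0396 and 0.0143). Of the 21 transcripts of the 4 genes, 18 were called lower in females and 0 higher, where 25% of 15968 transcripts tested were called lower. The 3 not called were SLC22A12 X4, SLC22A12 X1 (limma adjusted p = 0.0514) and SLC17A1 X2 (limma adjusted p = 0.0895). Transcripts of 1 gene are not independent, so these counts add little to those of the 4 genes. PDZK1 has 8 of the 21 transcripts, and its variants X6 and X9 differed by under 0.001 in 10 of 14 libraries.

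Other transporters that carry urate or the anions exchanged for it were also lower in females. Of 14 listed, 12 were in both tables, and 11 of the 12 were called lower in females and 0 higher, with a median log2 difference of -1.62 beside -0.35 for all genes. Of all genes tested, 35.5% were called lower. Without female 3, 9 of 12 were called, with median scaling 6, and with the proximal tubule level as a term 3 lower and 2 higher. These fits called 40.9%, 29% and 16.1% of all genes, in the same order. SLC16A9, a carnitine and monocarboxylate carrier, averaged a signal of 2.27 ± 2.23 in females (SD, n = 6) and 29.1 ± 21.8 in males (SD, n = 8), with no overlap (log2 difference -3.20, limma adjusted p = 0.000106). ABCC4 (MRP4), a urate exporter, had 27.1 ± 12.1 (SD, n = 6) and 61.3 ± 15.5 (SD, n = 8), also with no overlap (-1.22, limma adjusted p = 0.000822). Every female lay below every male for 11.6% of all genes tested. With the proximal tubule level as a term both were still called lower, SLC16A9 at -1.54 and ABCC4 at -1.65. Without female 3 their differences were -2.93 and -1.38.

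ABCC2 (MRP2), an exporter of organic anion conjugates, had a log2 difference of -1.51 (limma adjusted p = 0.00304). SLC13A3, the basolateral dicarboxylate carrier that supplies anions for exchange, had one of -3.24 (limma adjusted p = 0.00326). Without female 3 these were -1.25 and -2.33, and with the proximal tubule level as a term SLC13A3 was at 0.50 and not called. SLC2A12, a glucose transporter family member that moves urate, was the 1 of 12 not called, with 5.23 ± 3.19 in females (SD, n = 6) and 6.27 ± 2.39 in males (SD, n = 8) (log2 difference -0.30, limma adjusted p = 0.402, interval -0.87 to 0.27), and its sign turned with median scaling (0.07). With the proximal tubule level as a term it was called lower in females (-1.27, limma adjusted p = 0.0175).

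**Figure D5:**
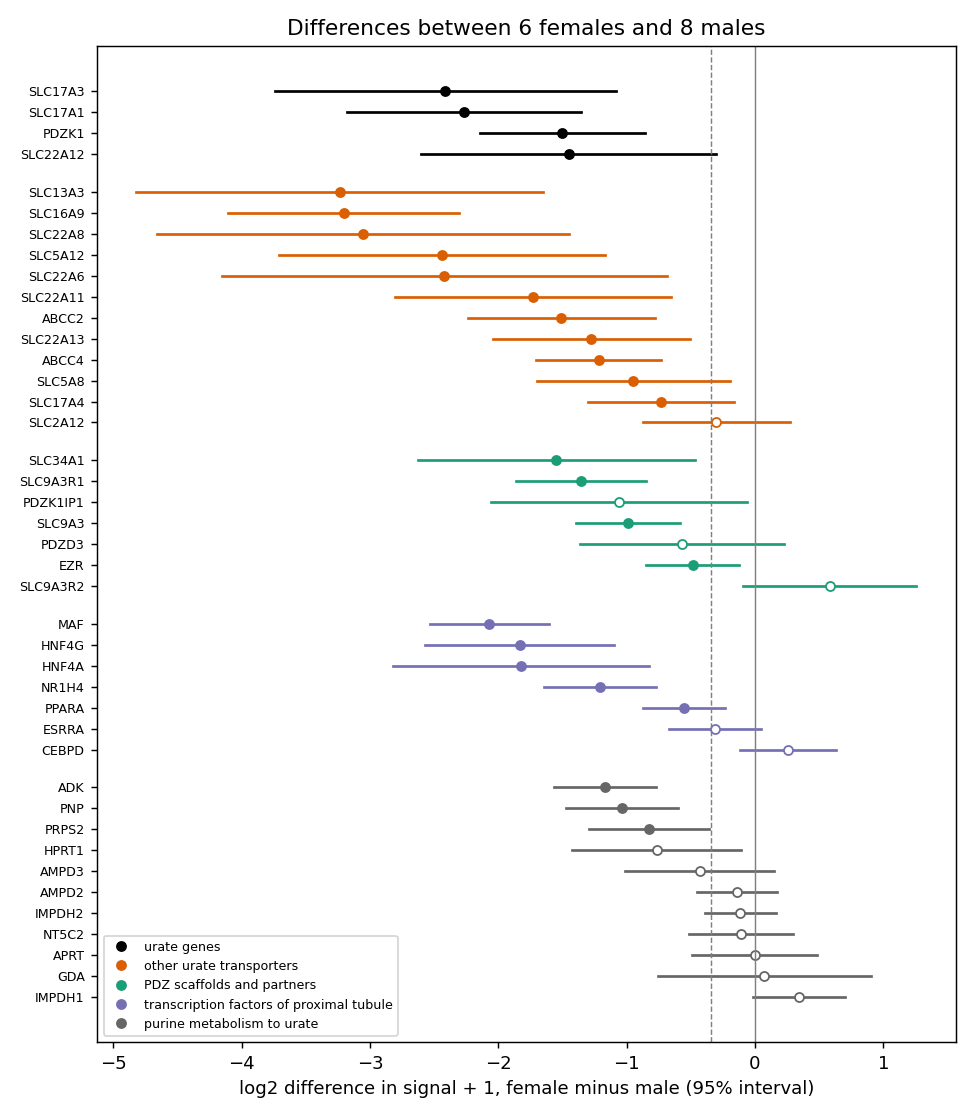
Log2 differences in signal + 1, female minus male, with 95% intervals from limma (horizontal axis), for the 4 urate genes and genes of 4 lists (vertical axis). Genes of these lists that were not tested or are not reported here are not drawn. Filled points passed an adjusted p of 0.05 and open points did not, the solid line is 0 and the dashed line is the median of all genes at -0.35. The 4 urate genes and 11 of the 12 other urate transporters are filled and to the left of 0, and 8 of 11 purine enzymes are open.

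Among PDZ scaffolds and their partners, 4 of 7 genes were called lower in females and 0 higher (median -0.99). The share of all genes called lower was 35.5%. Without female 3, 4 were called, and with median scaling 2, in fits with 40.9% and 29% of all genes called. With the proximal tubule level as a term, 1 was lower and 3 higher, in a fit with 16.1% of all genes called. SLC9A3R1 (NHERF1), a second scaffold of the luminal membrane, averaged a signal of 76.8 ± 25.6 in females (SD, n = 6) and 196 ± 59.1 in males (SD, n = 8), with no overlap (log2 difference -1.36, limma adjusted p = 0.000522). Every female lay below every male for 11.6% of all genes tested. The sodium-proton exchanger SLC9A3 had a difference of -0.99 (limma adjusted p = 0.000981), the phosphate carrier SLC34A1 of -1.55 (limma adjusted p = 0.0247) and the cytoskeletal linker EZR of -0.48 (limma adjusted p = 0.034). EZR was at -0.04 with median scaling and 0.01 after scaling without mitochondrial transcripts. SLC34A1, also one of the proximal tubule markers, was at -0.93 without female 3 and was not called with median scaling (-1.10, limma adjusted p = 0.136). With the proximal tubule level as a term it was called higher in females (0.92, limma adjusted p = 0.0153). PDZK1IP1, a membrane protein that binds PDZK1, was not called (-1.06, limma adjusted p = 0.0876), and with that term it was called higher in females (1.22, limma adjusted p = 0.0083).

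Of 9 transcription factors of the proximal tubule, 6 were called lower in females and 0 higher (median -1.21), where 35.5% of all genes were lower. Without female 3, 6 were again lower, in a fit with 40.9% of all genes called. With median scaling 5 were lower and 1 higher, in a fit with 29% of all genes called. MAF averaged a signal of 9.29 ± 3.35 in females (SD, n = 6) and 41.9 ± 10.6 in males (SD, n = 8), with no overlap (log2 difference -2.07, limma adjusted p = 4.75e-05). It was the 1 factor still called with the proximal tubule level as a term, at -1.24, in a fit with 16.1% of all genes called. The bile acid receptor NR1H4 had a difference of -1.21 (limma adjusted p = 0.000431) and HNF4G of -1.84 (limma adjusted p = 0.000829), both with no overlap. Every female lay below every male for 11.6% of all genes tested.

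Enzymes of purine metabolism leading to urate were called at a share near that of all genes. Of 20 listed, 13 were in both tables and 11 were tested, of which 3 were called lower in females and 0 higher, where 35.5% of all genes were lower (median -0.14 beside -0.35 for all genes). Without female 3, 4 were lower, and with median scaling 2 were lower and 2 higher, in fits with 40.9% and 29% of all genes called. Adenosine kinase ADK averaged a signal of 8.69 ± 2.52 in females (SD, n = 6) and 20.7 ± 4.86 in males (SD, n = 8), with no overlap, as for 11.6% of all genes tested (log2 difference -1.17, limma adjusted p = 0.000277). Purine nucleoside phosphorylase PNP (-1.04, limma adjusted p = 0.00116) and the phosphoribosyl pyrophosphate synthetase PRPS2 (-0.83, limma adjusted p = 0.00808) were also lower. PRPS2 was not called with median scaling (-0.40, limma adjusted p = 0.153). IMPDH2, of guanine nucleotide synthesis, was not called (-0.12, limma adjusted p = 0.516), and with median scaling it was called higher in females at 0.32. XDH, the enzyme that forms urate, and the uricase gene UOX were not analysed here.

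The genes of most like pattern were ranked by Pearson's r of sex-centred log2(signal + 1) over the 14 libraries among 9708 other tested genes, as a description. Nearest to SLC22A12 were AMN (0.979), the membrane partner of the endocytic receptor cubilin, SLC22A11 (0.973) and ARSF (0.972). AMN and SLC22A11 kept ranks 1 and 2 without female 3, at 0.934 and 0.913. SLC22A11 (OAT4), an organic anion transporter that also takes up urate, is the next listed gene on the same strand, 18522 bases away. Its signal was 63.4 ± 40.1 in females (SD, n = 6) and 158 ± 40.9 in males (SD, n = 8) (log2 difference -1.73, limma adjusted p = 0.0137). It was not called with median scaling (-1.29), and it was called higher in females with the proximal tubule level as a term (0.75).

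Nearest to SLC17A1 were the monocarboxylate carrier family member SLC16A4 (0.980), the amino acid carrier subunit SLC7A9 (0.980) and an entry listed without a symbol and described as a UDP glucuronosyltransferase of family 1 (0.979). SLC16A4 kept rank 1 without female 3, at 0.955. Nearest to SLC17A3 were GLYAT (0.981), which conjugates acyl groups to glycine, SLC7A9 (0.975) and AGXT2 (0.975). Without female 3 these 3 held ranks 4, 7 and 13. SLC7A9 and AGXT2 are also proximal tubule markers of the level used above. Nearest to PDZK1 were the organic cation transporter SLC22A2 (0.976), the basement membrane protein TINAG (0.976) and the adhesion protein CDH2 (0.967), with ranks 2, 3 and 7 without female 3. None of the 4 urate genes was among the 3 nearest of another, with or without female 3. SLC17A1 ranked 19th for SLC17A3, and SLC22A12 ranked 175th for PDZK1. Without female 3 these ranks were 39 and 198. PDZK1 ranked 138th for SLC17A1, and without female 3 it ranked 5th (r = 0.935). SLC17A1 ranked 66th for PDZK1, and 16th without female 3.

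Markers of other parts of the nephron were set beside these results. Among 22 proximal tubule markers 20 were called lower in females and 0 higher (median -2.05). Of 3 distal convoluted tubule markers 2 were lower (median -1.14), of 6 thick limb markers 2, of 10 collecting duct markers 0 and of 8 injury markers 0, where 35.5% of all genes were lower. Of 7 endothelial markers 1 was higher, where 2.2% of all genes were higher. The part of tissue composition in the differences of the urate genes was not tested. The fit with the proximal tubule level as a term cannot separate it. That level was 2.82 to 6.68 in females and 6.85 to 8.11 in males, and it does not tell cell number from RNA per cell.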

How the data were processed

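RNA of 17 baboon kidney cortex biopsies was sequenced from stranded mRNA libraries. The authors deposited, per the file headers, 1 table per sex with a signal value and a co-expression module colour per transcript. Partek is named in the submitters' processing notes. Genome build, aligner, quantification and scaling were not given in the sources used here. Positions are printed as the tables list them. Whole reads were not recovered, so depth is unknown and no count test was run. The table of males was held in part: 17119 complete rows and 1 incomplete row. Tables were joined by transcript identifier, 1 was subtracted and transcripts were summed by the symbol in the name column. Both tables were taken to share 1 scale, which no source states, so differences are set beside the median of all genes and other scalings.

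Genes that reached a signal of 1 in 6 or more of the 14 compared libraries were tested with limma 3.58.1 (R 4.3.3) with a mean-variance trend on log2(signal + 1), with Benjamini-Hochberg adjustment over all genes and a threshold of 0.05. Fold changes on this scale understate those of low genes. Shares of transcripts used an exact permutation test over libraries (numpy 2.4.6), adjusted over all genes with at least 2 transcripts. The planned adjustment was over the set alone. SLC2A9 and ABCG2 were not analysed here. Correlations used 100000 permutations over 14 libraries and exact permutation within a sex, with Spearman's rho from scipy 1.17.1. Scripts were tested on simulated data. Named genes were the set, up to 4 called members of each of 4 lists by smallest adjusted p with the uncalled member of highest mean, and the 3 genes of most like pattern for each gene of the set. Some genes that this rule or the marker lists name are not reported here. Single transcript variants other than the leading one, CD160, GPR89A and SLC22A7 were named after their values or positions were seen. The members and lists were chosen with earlier results of these data known. Each animal is 1 sample. Alternatives were other scalings, filters, pseudocounts, terms, library subsets and leaving out each library in turn.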

Additional observations from a re-analysis of the deposited data

Results flagged for a closer look

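In 14 sets of values, each a gene, share or level within 1 sex, 3 had a library at the end that stood apart from the rest by Dixon's criterion, where chance gives about 5% of sets. Female 3 had a log2(signal + 1) of 0.84 for SLC17A3, next to 4.25 in female 8. Female 3 also had a proximal tubule level of 2.82, next to 5.46 in female 4. Male 2 had an SLC22A12 variant X4 share of 64.8%, next to 57.0% in male 1, and is the male nearest to the females in that share. SLC22A12, SLC17A1 and PDZK1 of female 3 were the lowest of the females without standing apart by that criterion.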

How the results depend on the processing

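The number of genes called between the sexes was 3658. It was 1290 with all 17 libraries, 2213 with a signal minimum of 10 (51.5% of 4299 genes tested, against 37.7% of 9709), 1 with age as a term, 1562 with the proximal tubule level as a term and 1908 against males of series A. Leaving out 1 library gave 3105 to 4029. With alternatives chosen after seeing the data, it was 0 without female 3 and with the proximal tubule term, and 1378 with median scaling and that term. Other scalings moved the split: 94.1% of called genes were lower in females as deposited, and 52% (1463 lower, 1350 higher) with median scaling, 52.4% with the upper quartile and 46.5% without mitochondrial transcripts. Of the 4 urate genes, 1 was called with all 17 libraries (SLC17A1), 0 with age, 0 with the proximal tubule term (also 0 without female 3, and 1 with median scaling), 2 against series A, and 3 to 4 when 1 library was left out.

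SLC22A12 reversed with age (0.23), with the proximal tubule term (1.06), with that term without female 3 (0.77) and with that term after median scaling (1.0). SLC17A3 reversed with the proximal tubule term (0.66), with that term without female 3 (0.39) and with that term after median scaling (0.53), and PDZK1 with that term without female 3 (0.40). The cause was not tested. Leave-one-out log2 differences were -1.71 to -0.83 for SLC22A12, -2.55 to -1.78 for SLC17A1, -2.74 to -1.67 for SLC17A3 and -1.69 to -1.27 for PDZK1.

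The SLC22A12 variant share difference was -1.12 points with all 17 libraries, where the gene's signal in females 1 and 2 was at most 0.71, and 0 of the genes of the set were then called for a share, against 1. The SLC17A1 and SLC17A3 share differences were 1.45 and 7.69 points without female 3, and -4.70 to 1.45 and -9.21 to 7.69 over all libraries left out in turn. Leaving out 1 library gave 0 to 1 shares called. Of 10 correlations, 10 passed over 14 libraries and 5 within males. Of the 6 between genes, 0 passed after the proximal tubule level was removed. The balance of SLC22A12 over the SLC17 pair differed by 0.89 log2 units, 0.38 with all 17 libraries. No paired analysis was possible because the labels give no numbers shared between the sexes. Depth is unknown, so values near 0, such as SLC17A3 in female 3, carry no counting limit.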

Other observations

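The authors' deposited table of females places all 8 PDZK1 transcripts in the co-expression module named pink, which holds 1064 of 26644 transcripts (3.99%). Of the SLC22A12 transcripts 3 are in pink and 1 in darkturquoise, of SLC17A3 4 are in pink and 1 in darkturquoise, and of SLC17A1 1 is in pink, 2 in darkturquoise and 1 in cyan. In the authors' deposited table of males, 7 PDZK1 transcripts are in the module named blue and 1 in magenta, SLC17A3 has 3 in blue and 2 in black, SLC22A12 has 2 in greenyellow and 2 in black, and the 4 of SLC17A1 are in blue, black, brown and magenta. The module blue holds 3027 of the 17119 rows held of that table (17.7%). A colour shared by both tables does not name the same module.

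The gene SLC22A7, an organic anion transporter of the proximal tubule, was read from the table of females alone. Its signal was 1.57 in female 3 and 21.3 to 75.1 in the other 5 compared females, and at most 0.473 in females 1 and 2.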
